A study of Rattus norvegicus with 4 samples.

Results

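C1q macrophages of the rat pituitary were the cell barcodes that carried complement C1q together with general myeloid genes, 844 of the 20381 barcodes that passed the quality filter. A member carried 1000 or more unique molecular identifiers (UMIs, each counting 1 captured RNA molecule) from 500 or more genes, with no more than 20% from mitochondrial genes. Prl, Gh1 and Pomc each had to hold under 10% of its UMIs. At least 3 of the 5 myeloid genes Tyrobp, Fcer1g, Ctss, Laptm5 and Aif1 had to be detected, with 5 or more UMIs of C1qa, C1qb and C1qc together. Levels of these 8 genes chose the members, so they are given below as a description only.

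Droplet libraries (10x Chromium 3' v3) were made from pituitaries of female Sprague Dawley rats aged 75 days, taken at random stages of the estrous cycle. In 1 preparation, glands of 30 rats were cut into anterior and posterior lobes, and each pool of lobes gave 1 library. In the other, 30 whole glands were pooled into 1 suspension and loaded on 2 lanes, so the lanes repeat the droplet step but not the animals. All cells were freed with trypsin and EDTA, and no group was treated. With 1 library per lobe the lobes could not be tested against each other. Ratios carry 95% exact counting intervals that cover counting error only, and the spread between the lanes shows the technical spread.

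Macrophages take up debris and pathogens, and present peptides to helper T cells on MHC class II molecules. C1q starts the classical complement cascade and tags material for uptake. In neural tissue, which the posterior lobe is, the resident macrophages are microglia, known for P2ry12, Tmem119, Sall1 and Cx3cr1. Macrophages along vessels and at tissue borders are known for Lyve1, Mrc1, Cd163 and F13a1. The anterior lobe is glandular tissue, whose hormone cells lie among folliculostellate cells and fenestrated capillaries. The posterior library was not neural tissue alone. By their markers, 502 of its barcodes were lactotrophs, 428 somatotrophs and 611 Pomc cells, beside 658 pituicytes. Posterior members are therefore macrophages of a mixed library, and the tissue that each came from was not tested.

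Members made up 2.95% of kept barcodes in the anterior library (167 of 5666, exact interval 2.52 to 3.42%) and 7.39% in the posterior library (291 of 3936, 6.6 to 8.26%). Whole-gland lane 1 held 197 of 5714 (3.45%, 2.99 to 3.95%) and lane 2 held 189 of 5065 (3.73%, 3.23 to 4.29%). The posterior share lay above the other libraries and the lanes overlapped. The filter kept 3936 of 8550 barcodes in the posterior library, against 5666 of 8134 in the anterior. In lane 1 it kept 5714 of 8347 and in lane 2 5065 of 7424, so a larger part of the posterior barcodes was left out. These are shares of captured barcodes that passed a filter, and more cells of a type and fewer cells of other types cannot be told apart. Members had medians of 4579 UMIs in the anterior, 7672 in the posterior, and 4743 and 4996 in the whole-gland libraries, against 10052 to 11251 in the other barcodes.

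**Figure D1:**
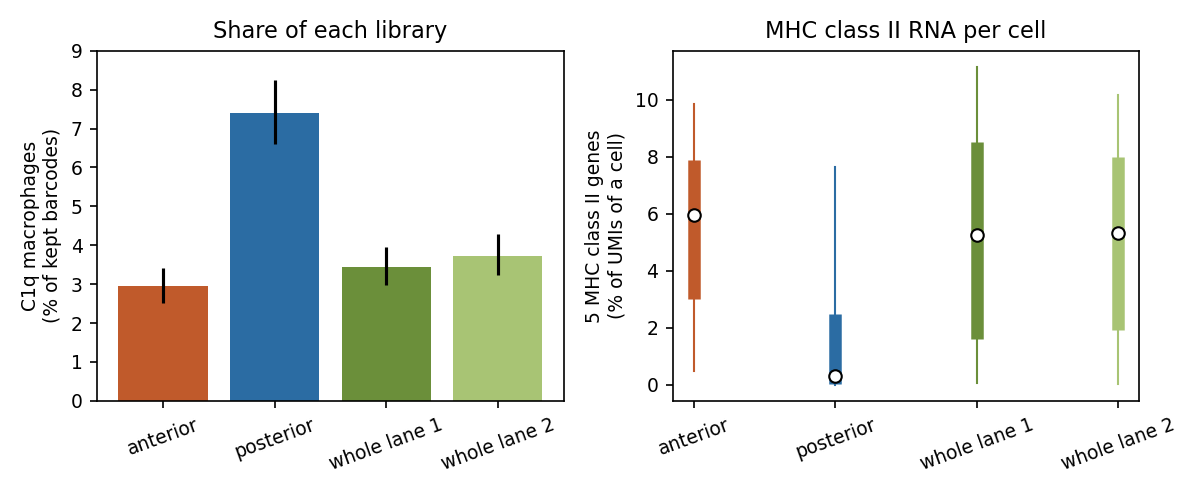
Left, C1q macrophages as a percent of kept barcodes in each library, with 95% exact binomial intervals (bars); right, UMIs of 5 MHC class II genes as a percent of each cell's UMIs (white point, median; thick line, quartiles; thin line, 5th to 95th percentile). The posterior library has the highest share, 7.39%, and the lowest MHC class II median, 0.297%.

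At the edges of the rule, 33 members had 5 to 9 C1q UMIs, and 26 myeloid barcodes had 1 to 4. A further 94 myeloid barcodes had no C1q UMI. Prl, Gh1 or Pomc at 10% or more kept out 68 barcodes that met the other terms. Across libraries, 89 barcode sequences occurred more than once; 3 members shared a sequence with a barcode of another library, and 0 with another member.

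A set of 87 members also passed the marker gate of another cell class, which asked for at least 3 of that class's markers. They were 15 anterior, 30 posterior, 20 lane 1 and 22 lane 2 barcodes. In the anterior library they held 42% of all member UMIs, with a median of 26496 UMIs against 4452 in the remaining members; in the posterior library they held 21.7%, and in the lanes 27.4% and 38.4%. Of the anterior ones 13 passed the folliculostellate gate, while posterior ones passed the endothelial gate (13), the fibroblast gate (11), that of pituicytes, the glia of the posterior lobe (11), and the folliculostellate gate (6); a barcode could pass several. The 9 folliculostellate markers summed to 1375 CPM (UMIs per 1000000 UMIs of the members) in anterior members and to 94.4 CPM without the 87. Endothelial markers summed to 215 CPM in anterior and 460 in posterior members, and to 1.41 and 30.4 without the 87; fibroblast and mural markers summed to 311 and 1152, and to 15.5 and 38.3. Pituicyte markers summed to 4.09 and 136 CPM, and to 2.82 and 49.3. The gates chose the 87 by markers of these classes, so lower sums without them follow from that choice and are a description only. The part of the 87 in the lobe ratios was not tested beyond that removal. Whether these barcodes hold more than 1 cell was not tested, and many lobe comparisons are given for all members and for the 757 others. Values per cell, shares of members with a UMI, splits of cells and correlations are given with the 87 kept in, as are levels printed without a second value. That split was added after the values were seen.

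The 5 markers of the label were C1qa, C1qb, Ctss, Tyrobp and Lyve1. All but Lyve1 are genes of the rule, so their excess follows from the choice of members and does not check the label. C1qa, C1qb, Ctss and Tyrobp were 614, 595, 653 and 197 times higher in members than in all other kept barcodes. Lyve1, a hyaluronan receptor, was not a marker of most members. It stood at 32.7 CPM in anterior, 185 in posterior, 57.6 in lane 1 and 39.0 in lane 2 members, against 466 CPM in endothelial cells. Without thinning, Lyve1 had a UMI in 5.39% of anterior and 37.1% of posterior members. Some other genes of tissue macrophages were at or near 0, while Folr2 (90.5 to 175 CPM) and Mrc1 (20.6 to 98.6 CPM) were not. Cd163 reached at most 9.32 CPM, Vsig4 2.21, Siglec1 7.62 and Stab1 5.34, and Marco had no UMI.

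Of the macrophage markers outside the rule, all 18 with 50 or more UMIs were at least 2-fold above other barcodes, where 26.6% of 8650 genes were. The members were chosen from the same RNA, so this is a description. Csf1r, the receptor for the survival factor CSF1, stood at 504, 1033, 618 and 535 CPM in anterior, posterior, lane 1 and lane 2 members, against 1.6 CPM in other barcodes. Spi1, a master transcription factor of myeloid cells, stood at 165, 254, 216 and 182 CPM. Markers of T and NK cells summed to at most 38.1 CPM, of B cells to at most 3.39 and of mast cells to at most 4.41.

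Myeloid barcodes below the C1q threshold, 120 in all, differed in makeup. They had Siglech at 435 CPM, which was at 0 in members, and Jchain, an antibody-joining protein, at 359 CPM against at most 2.54. Trem2, a lipid-sensing receptor, stood at 5.75 CPM in them and at 113 to 510 CPM in members. MHC class II RNA was also found in them: Cd74 stood at 7079 CPM and RT1-Da at 4017. The rule split these barcodes, so the contrasts were not tested.

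Genes of microglia were higher in posterior members. A gene was compared where it had 50 or more UMIs over the 2 lobe libraries, and counted where CPM differed at least 2-fold. Of 14 microglial genes compared, 13 were higher and 0 lower in posterior members, where 5.4% of 6834 genes were higher and 7.02% were lower. The median ratio was 3.44, against 0.986 over all genes. Siglech is also on the microglial list, but it had no UMI in members of any library and so was not compared. Among the 757 others 11 of 13 were higher and 0 lower, with a median ratio of 3.12, where 5.93% of 4978 genes were higher, 2.67% lower and the median was 1.06. TMM scaling counted 501 genes higher and 372 lower, against 369 and 480 with plain CPM, and moved the median of all genes from 0.986 to 1.09.

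P2ry12, the purine receptor by which microglia sense tissue damage, stood at 38.4 CPM in anterior, 270 in posterior, 86.4 in lane 1 and 77.2 in lane 2 members. Posterior members were high, and the lanes lay close together between the lobes. The posterior-to-anterior ratio was 7.03 (5.22 to 9.66), and 5.26 (3.85 to 7.38) among the 757.

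Gpr34, a lysophosphatidylserine receptor, stood at 105, 484, 298 and 230 CPM in the same order, a ratio of 4.62 (3.85 to 5.59) and of 3.53 (2.91 to 4.32) among the 757. Trem2 stood at 113, 510, 202 and 188 CPM, a ratio of 4.52, and of 3.15 (2.63 to 3.8) among the 757. Both ran in the order anterior, whole gland, posterior.

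Sall1, a transcription factor that keeps microglial identity, was low: 19.6, 62.5, 31.3 and 30.9 CPM, with a ratio of 5.75 (2.94 to 12.8) among the 757. The fructose transporter Slc2a5 stood at 13.9, 51, 22.9 and 17.7 CPM. Sparc, a matrix protein, stood at 508, 2226, 722 and 917 CPM; fibroblasts held 4817 CPM of it, and its ratio was 4.38, and 8.13 without the 87. For Cx3cr1, the fractalkine receptor, and Tmem119 the difference did not reach 2-fold among the 757. Cx3cr1 stood at 278, 641, 407 and 385 CPM (ratio 2.31, then 1.65), and Tmem119 at 36, 76, 49.1 and 45.6 CPM (ratio 2.11, then 1.47).

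A pair of abundant protease-system genes, both on the list of lysosome and cathepsin genes, ran the same way. Most of that list did not pass 2-fold. Of 22 genes compared, 7 were higher and 1 lower in posterior members (5.4% and 7.02% over all genes). Among the 757, 5 were higher and 2 lower (5.93% and 2.67% over all genes), with a median ratio of 1.25. Ctss, the lysosomal protease cathepsin S and a gene of the rule, stood at 2675, 10087, 4402 and 3725 CPM, with a ratio of 3.77 and of 2.68 among the 757. Cst3, the cathepsin inhibitor cystatin C, stood at 8172, 33807, 14428 and 14607 CPM, with a ratio of 4.14 (4.05 to 4.22), and of 3.08 among the 757. Pituicytes also held Cst3, at 14702 CPM.

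**Figure D2:**
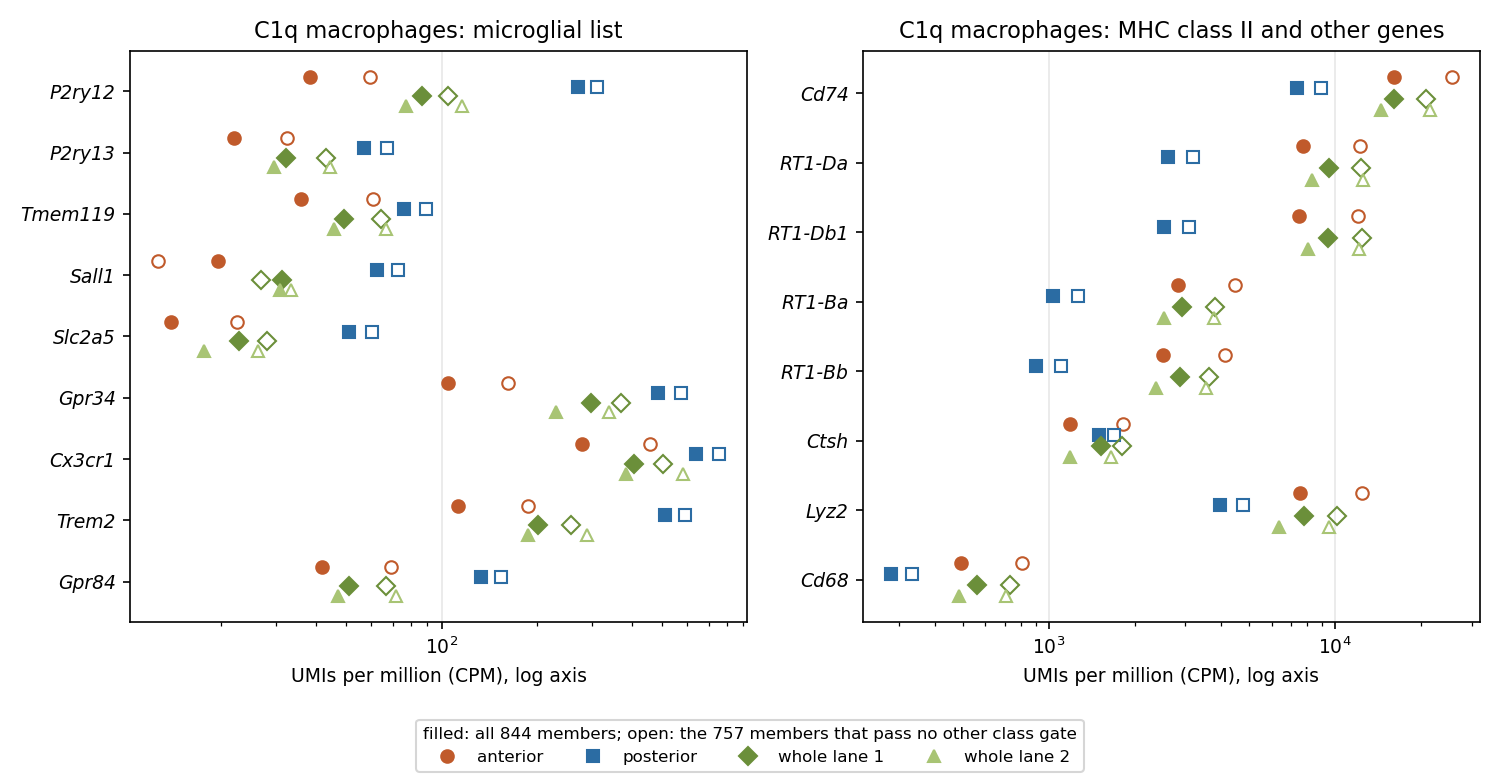
CPM (log axis) of microglial genes (left) and of MHC class II and other genes (right) in summed C1q macrophages of the 4 libraries; filled symbols are all 844 members and open symbols the 757 that pass no other class gate. Among symbols of the same fill, posterior squares lie to the right of every other library for the microglial genes (P2ry12, 270 against 38.4 to 86.4 CPM) and to the left for Cd74 and the RT1 genes.

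MHC class II genes were lower in posterior members. Of 9 genes of antigen presentation compared, 5 were lower and 0 higher, with a median ratio of 0.459, where 7.02% of all genes were lower. Among the 757 the counts were again 5 and 0, with a median of 0.349, where 2.67% of all genes were lower. The 5 were Cd74, the invariant chain that guides class II molecules through the cell, and the class II chains RT1-Da, RT1-Db1, RT1-Ba and RT1-Bb. Such genes are switched on by the coactivator CIITA, which acts through factors bound to the X and Y boxes just before the start site.

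Since the 4 chains moved together, the 150 bases before each start site are shown (RefSeq, GRCr8, chromosome 20). All 4 were matched by symbol. Capitals mark matches to the Y box CTGATTGG and to the X box, in which 1 base was left free, both searched on both strands. In the windows with both, the X box comes first. The windows are chr20:4515265-4515414 on the plus strand for RT1-Da, chr20:4560163-4560312 on the minus strand for RT1-Db1, chr20:4576907-4577056 on the plus strand for RT1-Ba and chr20:4604119-4604268 on the minus strand for RT1-Bb.
RT1-Da: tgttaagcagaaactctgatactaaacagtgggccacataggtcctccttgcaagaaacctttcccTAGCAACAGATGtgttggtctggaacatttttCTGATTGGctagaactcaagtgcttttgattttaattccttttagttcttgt
RT1-Db1: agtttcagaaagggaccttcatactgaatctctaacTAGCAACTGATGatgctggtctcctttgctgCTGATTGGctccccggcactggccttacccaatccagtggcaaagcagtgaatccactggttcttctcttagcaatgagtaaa
RT1-Ba: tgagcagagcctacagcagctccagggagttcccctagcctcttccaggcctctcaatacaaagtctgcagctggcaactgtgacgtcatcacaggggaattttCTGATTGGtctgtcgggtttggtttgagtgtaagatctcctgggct
RT1-Bb: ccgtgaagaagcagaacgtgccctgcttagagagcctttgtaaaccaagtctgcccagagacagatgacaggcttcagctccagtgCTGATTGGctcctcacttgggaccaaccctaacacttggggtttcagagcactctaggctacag

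The Y box letters were in all 4 windows, starting 46 to 83 bases before the start site, and in 820 of 33469 rat promoter windows of the same length (2.45%). The X box letters were in the RT1-Da and RT1-Db1 windows and in 5 of all windows (0.0149%). The free base lies where the RT1-Da and RT1-Db1 windows differ, and no other form of the X box was searched. The search therefore does not show that RT1-Ba or RT1-Bb lacks an X box, and the share is of these letters only. The windows of Cd74 and RT1-DMa, searched the same way, held 0 matches to the Y box letters. A match describes the letters and is not a measured binding site.

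RT1-Da stood at 7704 CPM in anterior, 2616 in posterior, 9536 in lane 1 and 8316 in lane 2 members. RT1-Db1 stood at 7501, 2520, 9477 and 8063 CPM. Posterior members were low in both. The whole-gland lanes lay above the anterior library over all members; among the 757, RT1-Da stood at 12192, 3191, 12296 and 12508 CPM, with anterior and lanes close together. The posterior-to-anterior ratios were 0.34 (0.329 to 0.351) and 0.336 (0.325 to 0.347), and 0.262 and 0.256 among the 757.

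Cd74 stood at 16038, 7360, 16109 and 14522 CPM, with a ratio of 0.459 and of 0.349 among the 757. RT1-Ba stood at 2817, 1034, 2929 and 2534 CPM and RT1-Bb at 2506, 902, 2884 and 2378 CPM. Ciita itself was near its counting floor, at 8.99, 4.11, 10.2 and 7.35 CPM, with an interval for its ratio that holds 1 (0.174 to 1.19). Ctsh, a cathepsin, did not follow: its ratio was 1.27, and 0.928 among the 757.

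Per cell, the 5 class II genes held a median of 5.98% of UMIs in anterior members, 0.297% in posterior members and 5.25% and 5.34% in the lanes. The quartiles ran from 3.01 to 7.89% in the anterior and from 0.0478 to 2.5% in the posterior library, so most anterior cells lay above most posterior cells. When each cell was thinned to 2000 UMIs, which left out 33 members, RT1-Da had a UMI in 98.1% of anterior members (94.6 to 99.6%) and 49.1% of posterior members (43.2 to 55.1%). In lactotrophs at the same depth it had one in 0.333 to 1% of cells. Without thinning the member shares were 97.6% and 60.5%, so the deeper posterior cells had the lower share.

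Lyz2, the lysozyme of macrophages and monocytes, was on the same side as class II: 7538, 3964, 7765 and 6389 CPM, with a ratio of 0.526 (0.511 to 0.541), past 2-fold only among the 757 (0.385). Cd68, a lysosomal glycoprotein, had a ratio of 0.412 among the 757. Clec7a, the receptor for fungal glucans, stood at 368, 156, 374 and 346 CPM, and the integrin chain Itgax at 66.2, 23, 51.7 and 69.9 CPM. Both were past 2-fold in all members and among the 757, with ratios of 0.328 and 0.264 in the latter.

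Within each library, the cells differed in the same 2 respects. Thinned members with 2 or more UMIs of P2ry12, P2ry13, Tmem119, Sall1, Gpr34 and Slc2a5 were 17 of the anterior cells (10.7%, 6.35 to 16.6%) and 145 of the posterior cells (50.9%, 44.9 to 56.8%). In the lanes they were 53 (28.3%) and 45 (25%). In every library such cells had less class II RNA than cells with 0 of these UMIs: 3.56 against 5.81% in the anterior, 0.807 against 2.85% in the posterior, 3.23 against 5.93% in lane 1 and 3.1 against 5.85% in lane 2. They had more Cst3, 4.57 against 0.419% in the anterior and 5.05 against 1.88% in the posterior library. Cells with 1 of these UMIs had 5.91% class II RNA in the anterior, 2.4% in the posterior, 5.72% in lane 1 and 5.9% in lane 2. In class II RNA they lay closer to cells with 0 than to cells with 2 or more.

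Across cells, Spearman correlations between class II and microglial RNA were weak: -0.13 in the anterior (159 cells), -0.30 in the posterior (285), -0.33 in lane 1 (187) and -0.30 in lane 2 (180). Class II and Lyz2 ran together more closely, at 0.49, 0.51, 0.61 and 0.68. Both also ran against a cell's UMIs at full depth. In the same order, class II stood at -0.40, -0.04, -0.36 and -0.40 with depth, and Lyz2 at -0.33, -0.15, -0.36 and -0.40. The part of depth in the correlation of class II with Lyz2 was not tested. Cells of 1 library share its free RNA and preparation, and these values are descriptions.

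**Figure D3:**
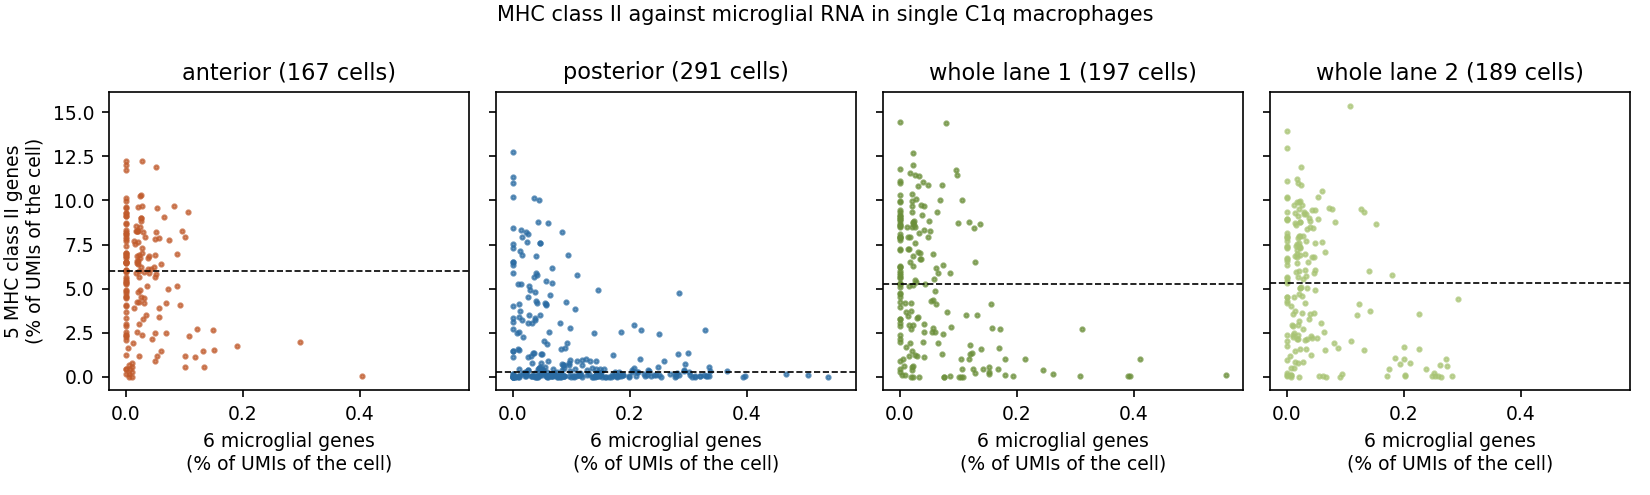
Each point is 1 C1q macrophage: UMIs of 6 microglial genes (x axis) and of 5 MHC class II genes (y axis), as percent of the cell's UMIs at full depth; dashed lines are library medians of MHC class II. Posterior cells reach further right and lie mostly near 0 on the y axis (median 0.297%), and cells high on both axes are few in every library.

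Genes of perivascular macrophages formed a smaller share. Of 11 such genes compared, 5 were higher and 0 lower in posterior members, both over all members and among the 757: Lyve1, Mrc1, F13a1, Igf1 and Pltp. Over all genes 5.4% and 5.93% were higher. Igf1 may be free RNA, since fibroblasts held 1393 CPM of it against 136 in members. Lyve1 had a ratio of 5.66 (4.09 to 8.02), and 8.63 (5.32 to 15) among the 757. F13a1, a clotting factor subunit, stood at 3.27, 30.8 and 5.93 CPM in anterior, posterior and lane 1 members and had no UMI in lane 2. The mannose receptor Mrc1 stood at 32.7, 98.6, 60.1 and 20.6 CPM, so that the lanes differed nearly as much as the lobes. Folr2, a folate receptor of resident macrophages, stood at 120, 175, 127 and 90.5 CPM, and its ratio among the 757 was 1.03 (0.844 to 1.26).

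**Figure D4:**
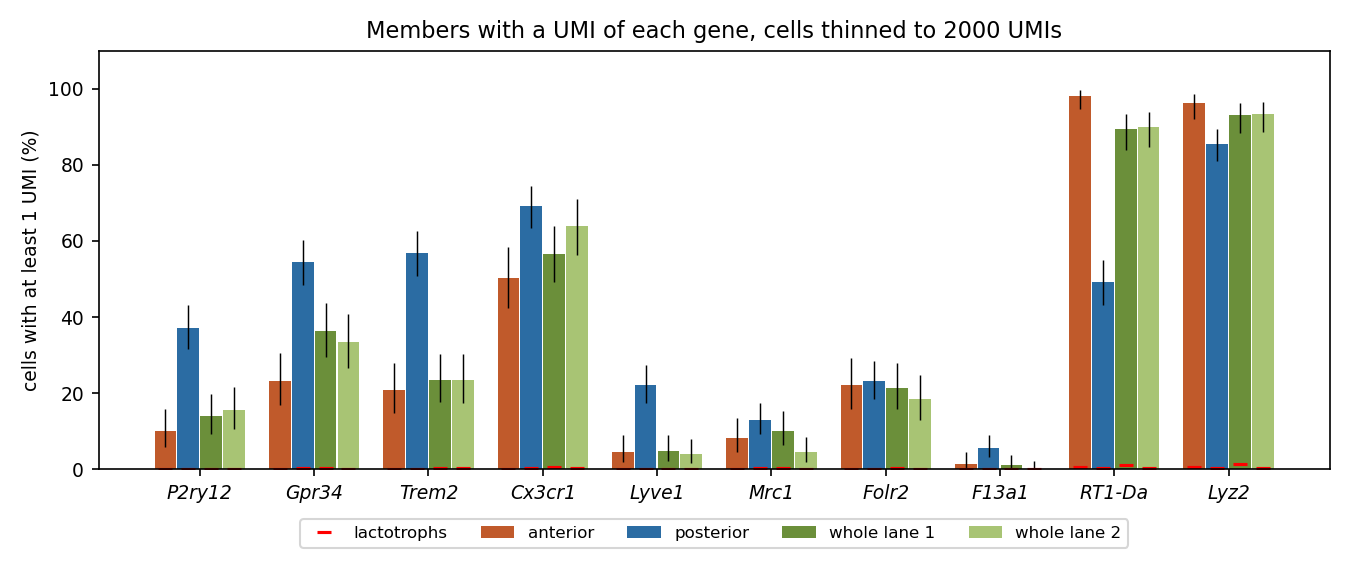
Percent of C1q macrophages with at least 1 UMI of each gene after thinning to 2000 UMIs, by library, with 95% exact binomial intervals; red marks are lactotrophs of the same library. P2ry12 has a UMI in 37.2% of posterior and 10.1% of anterior members, Folr2 in 23.2% and 22%.

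Uptake receptors and bridging proteins were higher in posterior members in 6 of 10 genes among the 757, with 0 lower, where 5.93% of all genes were higher and 2.67% lower. They included Mertk, the receptor for dying cells (9.81, 48.9, 27.1 and 27.9 CPM), and its bridging ligand Pros1 (24.5, 55.9, 29.6 and 27.2 CPM). Of 14 complement genes over all members 5 were higher and 1 lower (5.4% and 7.02% over all genes). Of 11 among the 757, C3, Cfp and Cfd were higher and Itgax lower (5.93% and 2.67% over all genes). C3, the central complement protein, stood at 133, 406, 121 and 193 CPM. Cfd stood at 22.9, 195, 136 and 25.7 CPM, so that the lanes, which share a suspension, also lay far apart. C1qa, C1qb and C1qc had ratios of 1.39, 1.43 and 0.908 among the 757.

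Signals and receptors split. Il1a, an inflammatory cytokine, stood at 63.8, 348, 118 and 106 CPM, with a ratio of 5.47 (4.33 to 6.98), and 4.37 among the 757; Il1b had ratios of 1.81 and 1.32. Of 13 chemokines among the 757, 2 were higher (Ccl12 and Cxcl10) and 3 lower (Ccl6, Cxcl16 and Ccl5), against 5.93% and 2.67% over all genes. A single cell held 38% of the posterior Ccl12 UMIs. Ccl3 and Ccl4, past 2-fold over all members, had ratios of 1.78 and 1.62 among the 757.

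Of 20 receptor genes, 5 were higher among the 757, among them Csf3r, Il6st and Nrp1, and 2 lower (Csf2ra and Cxcr4), against 5.93% and 2.67% over all genes. Nrp1, a coreceptor for semaphorins and VEGF, stood at 23.7, 122, 51.7 and 41.2 CPM, with a ratio of 5.15 (3.51 to 7.82), and 6.85 among the 757. Cxcr4, the receptor for CXCL12, stood at 164, 68.2, 167 and 156 CPM.

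Of 7 genes of iron and heme handling and 5 of the cell cycle compared among the 757, 0 passed 2-fold. Of 19 immediate early and stress genes only Ier3 did, with a ratio of 3.23. Over all genes 5.93% were higher and 2.67% lower, so in lists this short these counts are near that share. Egr1 and Fosb were lower over all members, at 0.483 and 0.484, and stood at 1.76 and 0.927 among the 757. Of 13 interferon-induced genes over all members, 3 were lower (Mx2, Rsad2 and Ifitm3; 7.02% of all genes were) and 0 higher. Among the 757 Cxcl10 was higher, and Isg15, Mx2, Ifi27l2b and Bst2 were lower, of 10 (5.93% higher and 2.67% lower over all genes). Of 5 monocyte and neutrophil genes, Plac8, Csf3r and S100a4 were higher over all members and among the 757, where Lyz2 was lower. Over all genes 5.4% were higher and 7.02% lower in all members, and 5.93% and 2.67% among the 757. S100a4 may be free RNA. Members with at least 3 of 5 cycling genes were 21 of 844 (2.49%, 1.55 to 3.78%), at 5, 4, 4 and 8 per library.

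**Figure D5:**
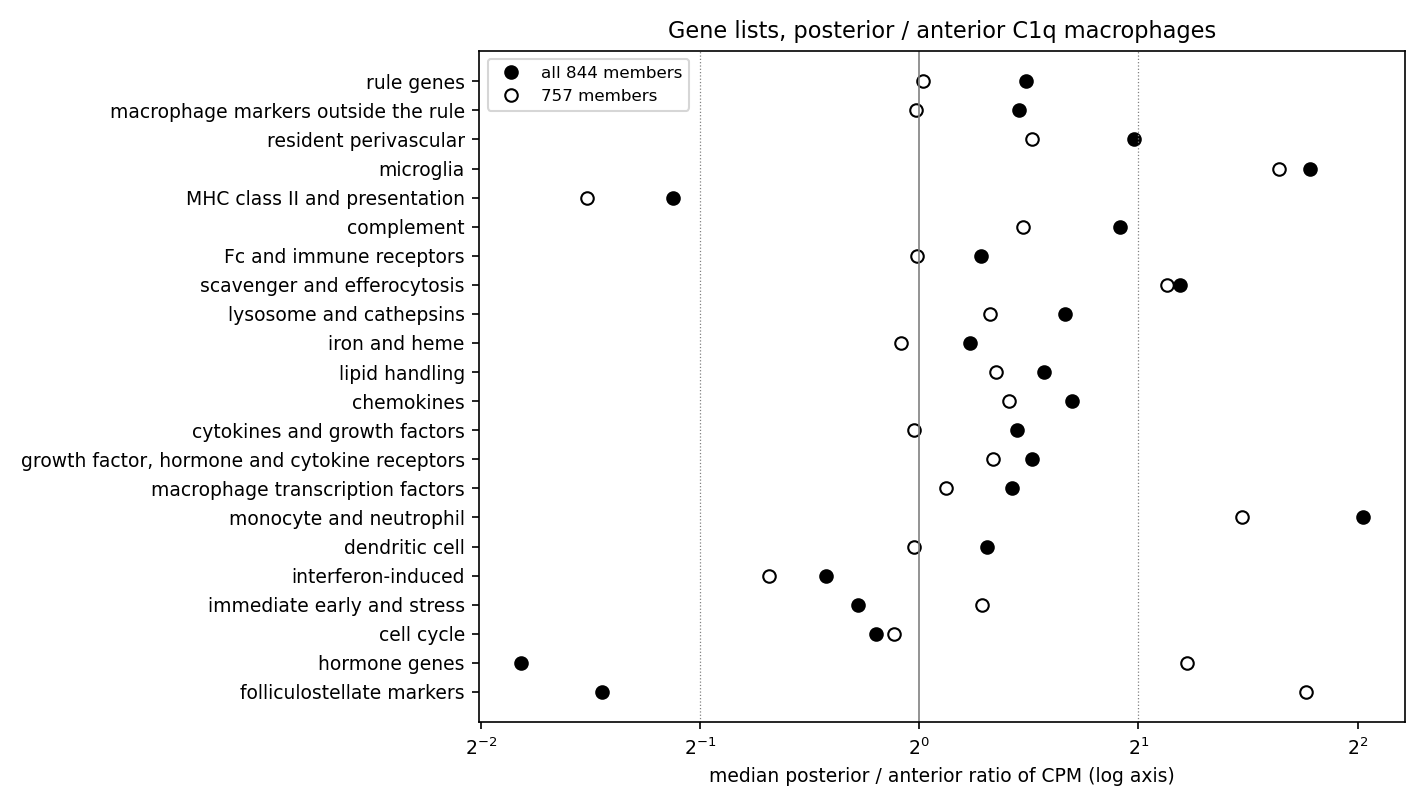
Median posterior-to-anterior ratio of CPM (log axis) for each gene list with at least 4 genes compared; filled points are all 844 members, open points the 757 that pass no other class gate, dotted lines 2-fold. Microglia (3.44, then 3.12) and MHC class II (0.459, then 0.349) keep their side of 1. Hormone and folliculostellate genes cross it, as do immediate early genes (0.824, then 1.22), macrophage markers outside the rule (1.37, then 0.988), iron and heme, cytokine, Fc receptor and dendritic cell genes.

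Among the lowest ratios over all members were those of Guca2b (357 CPM in anterior, 6.99 in posterior members), Krt17, Hey2, Msx1 and Cldn4, each highest in folliculostellate cells. In the anterior members among the 757, Guca2b, Krt17 and Cldn4 had no UMI. Among the highest, Pinlyp had 98.8% and Tshb 95.3% of their posterior UMIs in 1 cell. Avp, which encodes vasopressin, had no UMI in anterior members, where 3 UMIs would be 2.45 CPM, and stood at 34.9 CPM in posterior members. Whether members made Avp RNA or held it as free RNA was not tested.

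Among the 757, with at least 20 cells holding the gene, the lowest ratios were those of Plaur, the urokinase receptor, at 0.149 (0.1 to 0.217), Tnfrsf14 at 0.161 and Ifitm1 at 0.203. Ifitm1 stood at 1121, 317, 1221 and 885 CPM over all members. Fscn1, an actin-bundling protein, was on the high side, at 26.2, 194, 65.2 and 50 CPM and a ratio of 6.52 among the 757. These genes were chosen after values were seen.

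The lanes show how far 1 suspension differs from itself. Lane 2 was at least 2-fold above lane 1 in 2.03% of 5465 genes and below it in 0.531%; among the 757 the shares were 0.553% and 0.304%. Of 12 microglial genes and 9 class II genes compared between lanes, 0 passed 2-fold. Other lists did differ between lanes: 3 of 10 perivascular genes, 3 of 12 chemokines, 3 of 18 cytokines and growth factors and 2 of 9 genes of uptake passed 2-fold. Against whole-gland members, posterior members were higher in 3.05% and lower in 4.63% of 7826 genes, and among the 757 in 2.71% and 2.09% of 5943. Hormone RNA, which macrophages do not make, was in all members and followed the tissue. Prl stood at 15279 CPM in anterior and 2994 in posterior members, and Pomc at 105 and 2714. With mitochondrial, Prl, Gh1 and Pomc UMIs left out of the totals, 350 genes were higher and 519 lower in posterior members, against 369 and 480.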

How the data were processed

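The authors deposited UMI counts per gene and barcode for 4 libraries in 1 matrix, made with Cell Ranger 3.1 per the submitters' processing notes; the build and any depth equalization are not given in the sources used here. Libraries, per the labels, were read from barcode suffixes; they held 61981865 to 72754998 UMIs in 7424 to 8550 barcodes. The deposited barcode list is of another kind and holds no measurement.

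UMIs of members were summed per library and scaled to CPM. Ratios have exact conditional binomial intervals and shares Clopper-Pearson intervals, both at 95%. No test was run, since each lobe has 1 library. Counts per cell were thinned to 2000 UMIs for shares and correlations. Doublets were scored with Scrublet (scanpy 1.11.5, expected rate 0.06), and barcodes above 0.25 were left out only in an alternative. TMM came from edgeR 4.0.16. Ratio and interval code was tested on simulated counts. Of 394 listed genes 20 were not matched and are not analysed here; a few others are not reported here.

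Named genes were those of the rule and markers, the 20 highest levels, the 15 highest ratios to other barcodes, the 12 largest lobe ratios per direction without possible free RNA (members under 10% of the highest class), the 10 largest per direction against C1q-low barcodes, and 3 per list; 15 per direction among the 757 were added later, and some listed genes were named after their values were seen. Members and lists were chosen with earlier results of these data known.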

Additional observations from a re-analysis of the deposited data

How the results depend on the processing

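No paired analysis was possible because each lobe has 1 library and the whole-gland replicate numbers are lanes of 1 suspension. The posterior share of members exceeded the other shares under every alternative run. With mitochondrial UMIs limited to 10%, shares were 3.78% in the anterior, 10.7% in the posterior and 4.52% in the whole gland; without the 87 members that pass another class gate, the whole-gland share was 3.19%. Leaving out a whole-gland lane gave 3.45 to 3.73%. Counts of genes past 2-fold moved more. Higher in posterior members were 682 with a minimum of 20 UMIs, 127 with 200, 123 with thinned cells, 160 at 3-fold and 239 against the whole gland. Lower were 1020, 124, 65 and 201 under the first 4 of these, 275 at 10% mitochondrial UMIs, 258 with 10 C1q UMIs, 292 by per-cell means and 133 without the 87. Fewer or more genes compared goes with the count under the minimum and thinning settings; for the other settings the cause was not tested.

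Over 16 alternatives the 5 class II genes had ratios of 0.252 to 0.507, 7 microglial genes 1.58 to 8.13, Tmem119 and Cx3cr1 1.47 to 2.55, Lyz2 0.378 to 0.581, and the C1q genes 0.908 to 2.24. Among the alternatives, those that changed only the UMI minimum of a gene or the fold cutoff could not change a ratio. Another took the whole gland as the reference in place of the anterior library. Of 1027 single-gene ratios, with those that could not change counted in, 311 left their counting interval. The share is therefore lower than under the settings that could change a ratio. A further 8 of the 1027 ratios, of genes past 2-fold over all members, crossed 1 (crossings of genes within 2-fold are not counted): Tshb 0.446 (10% mitochondrial), Pinlyp 0.401 (10 C1q UMIs) and 0.483 (4 of 5 myeloid genes), Msx1 1.86 and Egr1 1.76 (without the 87), Egr1 1.10 (per-cell means) and 1.002 (thinned), and Cldn4 1.12 (thinned). Of shares of members with a UMI, 75 of 156 left their interval. Genes under 50 UMIs were below what this depth can compare.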
